A study of Arabidopsis thaliana with 8 samples.

Results

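The *urt1-1* single mutant was compared with WT across all mRNA loci of *Arabidopsis thaliana* at which small RNAs were counted. The members of the comparison are the 2 *urt1-1* and the 2 WT libraries, 4 of the 8 libraries of the series, and the comparison covers 24722 of the 24859 loci of the table. The *urt1-1* plants carried a T-DNA insertion in *URT1* (line Salk_087647C), the WT plants were of the Col-0 accession from which the mutant derives, and both were otherwise untreated plantlets, 24 days old, grown in vitro in cycles of 12 h light (22 °C) and 12 h dark (18 °C). One mutant line was used, the libraries of a genotype are labelled as biological replicates, a term that the study's reporting summary uses for plants of 1 genotype raised on separate occasions, and how many plants went into a library is not given in the sources used here, so that the p-values measure the spread between 2 libraries per genotype. The other 4 libraries, those of the double mutant *urt1-1 xrn4-3* and of *xrn4-3*, enter the fit for the spread, and *urt1-1 xrn4-3* against *xrn4-3* is used as a separate look at the loss of URT1, since it shares no library with *urt1-1* against WT.

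URT1 is a terminal uridylyltransferase (TUTase), an enzyme that tags mRNAs with shortened poly(A) tails by adding uridines at their 3′ end. In plants, mRNAs that lack a cap or a proper tail can be copied into double-stranded RNA by an RNA-dependent RNA polymerase and cut into small interfering RNAs (siRNAs) by DICER-LIKE enzymes, and these siRNAs can in turn target the mRNA they came from. XRN4 is the cytoplasmic exoribonuclease that degrades uncapped mRNAs from the 5′ end. Reads of such libraries at an mRNA locus can be siRNAs, miRNAs encoded within the locus or plain degradation fragments of 18 to 30 nt, which counts alone cannot tell apart, and they are no measure of the mRNA level. In whole plantlets, fewer cells that make a small RNA and fewer molecules per cell cannot be told apart either.

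The *urt1-1* libraries held 6927828 and 6045353 counted reads, against 14635404 and 9895132 in the WT libraries, so that levels at weakly covered loci are less precise in *urt1-1*. Levels are given as CPM, the counts per 1000000 reads after division by the library total times its TMM factor, a scaling that sets the bulk of loci level between libraries. Over the 3301 loci with a mean of at least 20 CPM, log2 levels correlated with r = 0.919 between the *urt1-1* replicates and 0.881 between the WT replicates. Across genotypes the correlations were 0.950 for the libraries numbered 1, 0.940 for those numbered 2, and 0.927 and 0.909 for the others, so the genotypes did not separate the libraries more than the replicates did. Libraries with the same number correlated more closely across genotypes than the replicates within a genotype did. The 10 loci with the most reads took 30.9% and 31.4% of the reads in *urt1-1*, against 34.2% and 29.6% in WT.

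The targeted locus itself was measured first. *URT1* (AT2G45620, TAIR10 chr2:18792864-18795904, plus strand) gave 5.93 and 8.04 CPM in *urt1-1*, against 10.2 and 15.73 CPM in WT, from 41 and 44 reads against 138 and 151. Both *urt1-1* libraries were below both WT libraries, and the log2 change was −0.89 (SE 0.89, n = 2 libraries each), with an adjusted p of 1.00 in edgeR's likelihood ratio test. The locus gave 9.20 and 5.94 CPM in *urt1-1 xrn4-3* and 13.99 and 271 CPM in *xrn4-3*. Since small RNA reads do not measure the mRNA, these values are no check of the insertion.

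Across the 24722 loci, the shifts between *urt1-1* and WT were small and balanced. The median log2 change was −0.0037, 25% of loci lay below −0.24 and as many above 0.25, and the 5% tails began at −0.68 and 0.71. A change of no more than 1 in either direction was found for 96.3% of loci, with 467 loci above 1 and 450 below −1, while the median standard error of a locus was 0.50. In edgeR's likelihood ratio test with Benjamini-Hochberg adjustment over all loci, 6 loci were raised (0.0243% of those tested) and 1 was lowered (0.00404%) at a threshold of 0.05. At an unadjusted p under 0.05, 305 loci were raised (1.23%) and 213 lowered (0.862%), which together is below the share that a threshold of 0.05 lets through when nothing differs. EdgeR's quasi-likelihood test, which also counts the uncertainty of the dispersion, called 0 loci after adjustment, with 265 raised (1.07%) and 193 lowered (0.781%) at an unadjusted p under 0.05, and DESeq2 called 1 locus. Both *urt1-1* libraries were above both WT libraries at 3359 loci (13.6%) and below them at 2878 loci (11.6%). These shares are the background for every count given below.

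The largest of the called changes was at *EBF1* (AT2G25490, TAIR10 chr2:10847375-10850532, minus strand, 2 exons), which encodes an F-box protein that marks the ethylene-response factor EIN3 for degradation. *EBF1* had 319 and 486 CPM in *urt1-1*, against 29.6 and 33.4 CPM in WT. Both mutant libraries stood far above both WT libraries, and the 12.8-fold increase (log2 change 3.68, SE 0.63) passed the threshold with an adjusted p of 0.0021 in edgeR's likelihood ratio test, but not in the quasi-likelihood test (adjusted p = 0.97 or more for each of the 7 called loci). When each library was left out in turn, the change stayed between 3.34 and 3.95. It was also the only called locus that was called when *URT1* was lost in the *xrn4-3* background, with 5763 and 5945 CPM in *urt1-1 xrn4-3*, while *xrn4-3* had 138 and 507 CPM (log2 change 4.18, adjusted p = 5.6e-06 by the same test, 0.071 by the quasi-likelihood test).

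Neighbours in 1 cluster on chromosome 4 made up a further group of called loci, *CBF1*, *CBF2* and *DREB1A* (also named *CBF3*), which encode AP2-type transcription factors that switch on cold-responsive genes. *CBF1* (AT4G25490, chr4:13021780-13022725, minus strand) had 6.66 and 7.49 CPM in *urt1-1*, against 1.63 and 1.04 CPM in WT. *CBF2* (AT4G25470, chr4:13015277-13016220, minus strand) had 5.06 and 6.39 CPM in *urt1-1*, against 1.11 and 1.25 CPM in WT. *DREB1A* (AT4G25480, chr4:13018214-13019121, minus strand) had 7.23 and 4.38 CPM in *urt1-1*, against 1.11 and 1.35 CPM in WT. At each of these loci both mutant libraries were above both WT libraries, with 24 to 50 reads per *urt1-1* library against 10 to 22 per WT library. The log2 changes were 2.36 (SE 0.45) for *CBF1*, 2.27 (SE 0.51) for *CBF2* and 2.25 (SE 0.50) for *DREB1A*, with adjusted p = 0.0018, 0.0286 and 0.0286 by edgeR's likelihood ratio test.

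These 3 loci are near-identical in parts, so their counts are not independent. Of the 21-nt windows of their RefSeq gene models, 12.3% in *CBF1*, 17.9% in *CBF2* and 6.78% in *DREB1A* also occurred in another mRNA locus. These models are longer than the counted loci, of 946, 944 and 908 nt. A read from such a window could be counted at each locus that holds it. The longest run present in all 3 was 32 nt, and its first 21 bases are shown here because a small RNA of this sequence cannot be assigned to one of the genes (RefSeq, assembly TAIR10.1, minus strand, chr4:13022579-13022599 in *CBF1*, chr4:13016106-13016126 in *CBF2* and chr4:13019023-13019043 in *DREB1A*).
CBF1, CBF2 and DREB1A: accttatccagtttcttgaaa

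The remaining called loci were 2 raised and 1 lowered. AT1G62030 (chr1:22924250-22926598, minus strand), which encodes a protein with Cys/His-rich C1 domains, had 10.6 and 11.9 CPM in *urt1-1*, against 2.82 and 2.92 CPM in WT. Its log2 change of 1.96 (SE 0.41, adjusted p = 0.0144 by the likelihood ratio test) had the smallest standard error of the 7. AT3G17490 (chr3:5984827-5985993, plus strand), which encodes an F-box protein, had 6.37 and 15.5 CPM in *urt1-1*, against 1.78 and 1.25 CPM in WT, a log2 change of 2.83 (SE 0.62, adjusted p = 0.0403 by the same test). The mutant libraries of AT1G62030 lay close together, whereas those of AT3G17490 differed by more than 2-fold, and in both cases no mutant library reached down to the WT range.

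AT1G19396 (chr1:6709778-6711788, plus strand), which encodes an uncharacterized protein, was the only locus called lower in *urt1-1*. It had 1.74 and 3.29 CPM in *urt1-1*, against 10.5 and 10.5 CPM in WT, from 12 and 18 reads against 142 and 101. Its log2 change was −2.09 (SE 0.45), with an adjusted p of 0.016 by edgeR's likelihood ratio test and a range of −2.60 to −1.68 when each library was left out. The locus overlaps a shorter gene model on the same strand, AT1G19394 (chr1:6709773-6710670), with which it shares 51.9% of its own 21-nt windows and 99.4% of those of AT1G19394. AT1G19394 gave 0.868 and 1.46 CPM in *urt1-1*, against 4.67 and 4.79 CPM in WT, and had the second smallest p among the lowered loci with no overlap between the genotypes, with a log2 change of −2.04 (adjusted p = 0.266 by the same test), so the values share reads. A further gene model inside it, AT1G19397 (named after its values were seen), gave 0.868 and 0.731 CPM in *urt1-1*, against 1.26 and 0.729 CPM in WT, values that overlap.

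Leaving out a library leaves a genotype with a single library, which is then assumed to vary like the others, and it changed the calls. Without WT replicate 1, 0 of the 7 calls were left and 1 other locus was called. Without WT replicate 2, 0 of the 7 were left and 54 other loci were called lower, 45 of which were high in WT replicate 1 alone. Without *urt1-1* replicate 1, 3 of the 7 were left (*EBF1*, *CBF1*, AT3G17490), and without *urt1-1* replicate 2 also 3 (*CBF1*, *DREB1A*, AT1G19396). In each of these fits the direction of all 7 stayed as it was.

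**Figure D1:**
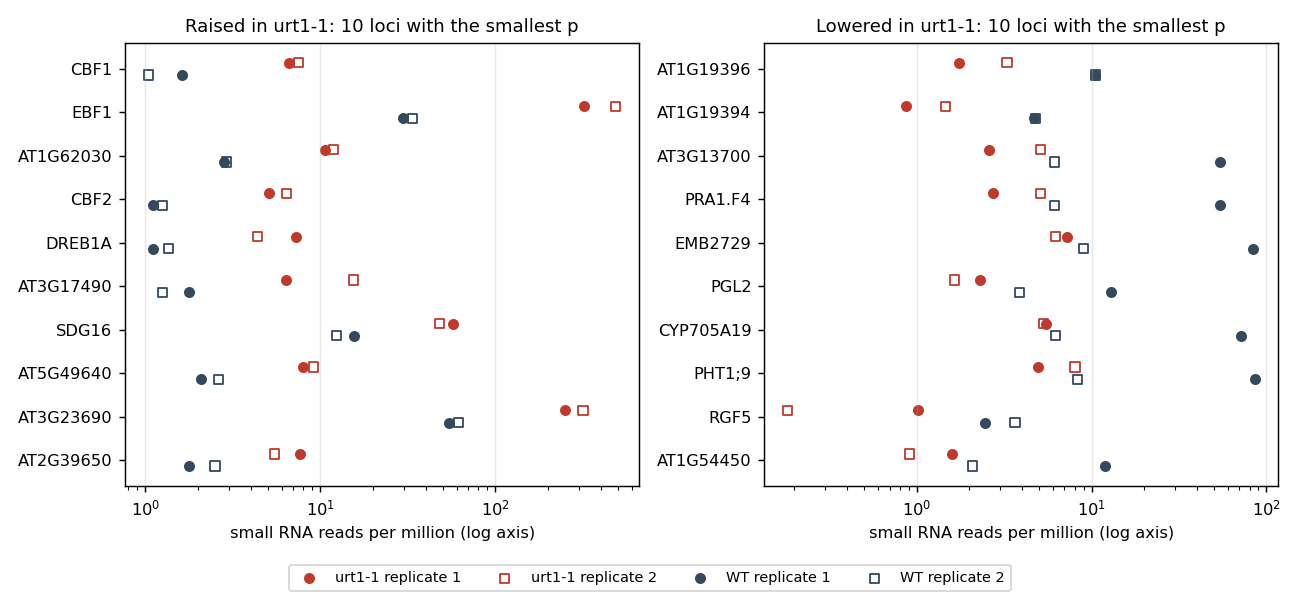
Small RNA CPM (log axis) at the 10 raised and the 10 lowered loci with the smallest p, among loci with a mean of at least 10 reads and with no overlap between genotypes. Filled circles are replicate 1 and open squares replicate 2. On the raised side both *urt1-1* libraries sit well above both WT libraries at every locus, whereas on the lowered side WT replicate 1 alone stands far to the right at 6 of the 10 loci, as at *PHT1;9* with 85.8 CPM.

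The raised loci ranked next did not pass the threshold. *SDG16* (AT4G27910), which encodes a SET domain protein, had 56.9 and 47.9 CPM in *urt1-1*, against 15.5 and 12.4 CPM in WT (log2 change 1.91, adjusted p = 0.155 by the likelihood ratio test). AT3G23690, which encodes a bHLH transcription factor, had 248 and 316 CPM in *urt1-1*, against 54.1 and 61.4 CPM in WT (log2 change 2.29, adjusted p = 0.321). Both were well covered, with the mutant libraries several-fold above the WT libraries and close to each other. The uncharacterized AT5G49640 had 7.96 and 9.13 CPM in *urt1-1*, against 2.07 and 2.61 CPM in WT, and AT2G39650, a DUF506 protein, had 7.67 and 5.48 CPM in *urt1-1*, against 1.78 and 2.501 CPM in WT. Of these 4 loci, AT5G49640 was also called when *URT1* was lost in the *xrn4-3* background, with a log2 change of 2.45.

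The lowered side of the ranking looked different. *PHT1;9*, a phosphate transporter gene, had 4.92 and 8.04 CPM in *urt1-1*, against 85.8 and 8.34 CPM in WT. *CYP705A19*, a cytochrome P450 gene, had 5.50 and 5.30 CPM in *urt1-1*, against 71.5 and 6.25 CPM in WT. The same single high library was found at *EMB2729*, which encodes a protein of the alpha-amylase family, with 7.23 and 6.21 CPM in *urt1-1*, against 83.8 and 8.96 CPM in WT. At these loci WT replicate 2 lay close to the *urt1-1* libraries, and WT replicate 1 alone was high. The RNA-binding protein gene AT3G13700 (2.60 and 5.12 CPM in *urt1-1*, against 54.5 and 6.15 CPM in WT) behaved alike, together with *PRA1.F4*, with which it overlaps over all of its 21-nt windows, and so did AT1G54450, a gene for a calcium-binding EF-hand protein.
*PGL2*, which encodes a 6-phosphogluconolactonase, had 2.31 and 1.64 CPM in *urt1-1*, against 12.9 and 3.86 CPM in WT, and *RGF5*, which encodes a root meristem growth factor peptide, had 1.01 and 0.183 CPM in *urt1-1*, against 2.44 and 3.65 CPM in WT. Of the 10 lowered loci, 6 were high in WT replicate 1 alone, and apart from the AT1G19396 pair only *PGL2* and *RGF5* were not. Their log2 changes ran from −2.98 (AT3G13700) to −2.04 (AT1G19394), and without WT replicate 1 the change at *CYP705A19* was −0.21 instead of −2.85.

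Single high libraries were counted over all loci for this reason. A library was called the only high one at a locus where it had at least 5 CPM and at least 4 times each of the other 3 libraries. There were 7 such loci for *urt1-1* replicate 1, 1 (*NIA1*) for *urt1-1* replicate 2, 49 for WT replicate 1 and 10 for WT replicate 2. At the 49 loci the median was 49.6 CPM in WT replicate 1, against 4.93 CPM in the highest of the other 3 libraries, and 48 of them are among the 213 loci lowered at an unadjusted p under 0.05. An example chosen after its values were seen is *CYCD7;1* (AT5G02110), a D-type cyclin gene, with 2.1701 and 0.731 CPM in *urt1-1*, against 90.6 and 1.46 CPM in WT. The part of this library in the lowered side of the comparison is therefore measured, while its origin was not tested.

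The loss of URT1 was measured a second time in the *xrn4-3* background, in libraries that the comparison of *urt1-1* with WT did not use. Both comparisons took the spread of each locus from the same fit, so counts of loci by p are not independent between them. There, 427 loci were raised (1.73% of the 24722) and 77 lowered (0.311%) in *urt1-1 xrn4-3* against *xrn4-3* at an adjusted p under 0.05 in edgeR's likelihood ratio test. In *urt1-1* against WT the 427 loci had a median log2 change of 0.22, compared with −0.0037 over all loci, and 314 of them (73.5%) were above 0, compared with 49.6% of all loci. Of the 427, 34 were raised in *urt1-1* at an unadjusted p under 0.05 (7.96%, against 1.23% of all loci) and 1 was lowered (0.234%, against 0.862%). Both *urt1-1* libraries were above both WT libraries at 151 of them (35.4%, against 13.6%) and below them at 30 (7.03%, against 11.6%). The median level of the 427 was 4.196 and 5.12 CPM in *urt1-1*, against 3.85 and 3.65 CPM in WT, while over all loci it was 4.34 and 4.75 CPM in *urt1-1*, against 4.37 and 4.59 CPM in WT. Each *urt1-1* library was thus above each WT library at the median of these loci, by a small margin, and the median change of these 427 loci stayed between 0.11 and 0.35 when each library was left out.

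The shift was larger where the change in the *xrn4-3* background was larger. The 40 loci raised by at least 3 on the log2 scale in *urt1-1 xrn4-3* against *xrn4-3* had a median change of 0.56 in *urt1-1* against WT, with 10 raised at an unadjusted p under 0.05 and 21 (52.5%) with both mutant libraries above both WT libraries. The 139 loci raised by 2 to 3 had a median of 0.36, with 17 (12.2%) raised and 57 (41.0%) above. The 248 loci raised by less than 2 had a median of 0.17, with 7 (2.82%) raised and 73 (29.4%) above. For the 24218 loci called in neither direction the median was −0.0074, and for the 77 loci lowered in *urt1-1 xrn4-3* it was −0.089. The 41 loci raised there in the stricter quasi-likelihood test had a median of 0.42 in *urt1-1* against WT, and 33 of them were above 0.

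Read in the other direction, the 100 loci most raised in *urt1-1* by p had a median change of 0.23 in *urt1-1 xrn4-3* against *xrn4-3*, compared with −0.013 over all loci. Of these 100, 17 were called raised there and 0 lowered, 25 were raised and 4 lowered at an unadjusted p under 0.05 (6.87% and 3.48% of all loci), and 66 had a change above 0. The 100 loci most lowered in *urt1-1* had a median of −0.044, with 0 called raised and 1 called lowered, and 42 of them were high in WT replicate 1 alone. Across all 24722 loci the changes in both backgrounds correlated only weakly, with Pearson's r = 0.083 and Spearman's rho = 0.076, while within the 427 loci Spearman's rho was 0.28. Loci are not independent replicates, and these values describe the fit only.

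**Figure D2:**
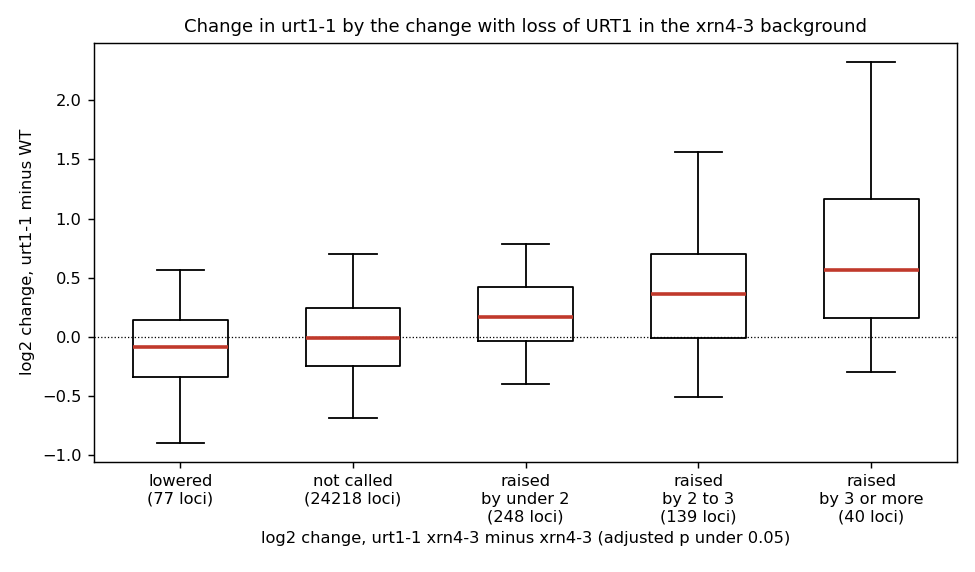
Distribution of the log2 change between *urt1-1* and WT for loci grouped by their change between *urt1-1 xrn4-3* and *xrn4-3*, which were measured in other libraries, with the numbers of loci given on the axis. Red bars are medians, boxes span the middle 50% of loci and whiskers run from the 5% to the 95% quantile. The median moves up with the change in the *xrn4-3* background, with 0.17 for 248 loci, 0.36 for 139 loci and 0.56 for 40 loci, compared with −0.0074 for loci that were not called there.

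The 34 loci raised in both backgrounds passed an unadjusted p under 0.05 in *urt1-1* and the adjusted threshold in *urt1-1 xrn4-3*. At all 34 the *urt1-1* and the WT libraries did not overlap. The choice by p in these same libraries favours this, so it is no separate support. Several of the 34 encode uncharacterized proteins, such as AT5G49640. The loci described here were chosen after their values were seen. *TCP14* (AT3G47620), which encodes a TCP factor that acts in cell proliferation, had 119 and 209 CPM in *urt1-1*, against 31.8 and 29.1 CPM in WT, a log2 change of 2.43 (SE 0.65). In the *xrn4-3* background it had 2303 and 1631 CPM in *urt1-1 xrn4-3*, while *xrn4-3* had 129 and 488 CPM. *TINY2* (AT5G11590), an AP2-type factor gene, had 7.09 and 3.11 CPM in *urt1-1*, against 0.815 and 1.25 CPM in WT (log2 change 2.32), and its change in the *xrn4-3* background was 3.11. *ERF4* (AT3G15210), which encodes a repressor of ethylene-responsive genes, had 33.6 and 37.8 CPM in *urt1-1*, against 15.3 and 10.4 CPM in WT (log2 change 1.47), with 1.79 in the *xrn4-3* background. *ZFP6* (AT1G67030), a C2H2 zinc finger gene that acts in trichome formation, was at a low level, with 2.46 and 3.47 CPM in *urt1-1*, against 0.593 and 1.35 CPM in WT, and its change in the *xrn4-3* background was 4.82.

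Among the 34 were 3 genes for SAUR proteins, small auxin-induced proteins, most of which act in cell elongation. Of the 24722 loci tested, 59 were SAUR genes. Whether the 34 hold more of them than this background was not tested, and the class was picked out after the values were seen. AT2G21210 had 7.96 and 6.58 CPM in *urt1-1*, against 2.37 and 3.13 CPM in WT. AT4G38840 had 8.97 and 5.66 CPM in *urt1-1*, against 3.26 and 1.77 CPM in WT, and AT5G50760 had 1.74 and 2.74 CPM in *urt1-1*, against 0.667 and 0.834 CPM in WT. Their log2 changes were 1.41, 1.53 and 1.56 in *urt1-1* against WT, beside 2.97, 2.37 and 2.25 in the *xrn4-3* background. *IAA28* (AT5G25890), which encodes an Aux/IAA repressor of auxin responses, had 2.1701 and 2.01 CPM in *urt1-1*, against 0.889 and 0.729 CPM in WT, and *EXPA15* (AT2G03090), which encodes a wall-loosening expansin, had 3.04 and 5.12 CPM in *urt1-1*, against 1.56 and 2.19 CPM in WT.

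The others had mixed roles. AT5G20700, a DUF581 gene, had 94.9 and 128 CPM in *urt1-1*, against 28.2 and 28.7 CPM in WT, a log2 change of 1.97, with 3.82 in the *xrn4-3* background. The F-box gene AT3G56470 had 2.75 and 3.11 CPM in *urt1-1*, against 0.741 and 1.04 CPM in WT, and its change of 3.24 in the *xrn4-3* background was one of 7 among the 34 that also passed the quasi-likelihood test there (adjusted p = 0.0066 in that test). *BAM3* (AT4G20270), which encodes a receptor kinase of the root phloem, had 8.54 and 10.6 CPM in *urt1-1*, against 3.93 and 5.63 CPM in WT, a log2 change of 1.00 beside 3.35 in the *xrn4-3* background. AT3G22970 and AT3G22968 held identical values in every library, 25.3 and 36.5 CPM in *urt1-1*, against 11.9 and 14.9 CPM in WT, so they are 1 measurement. AT5G25340 (11.6 and 23.0 CPM in *urt1-1*, against 4.96 and 6.88 CPM in WT) overlaps *EBF2*, the paralogue of *EBF1*, on the other strand, over 29.4% of its windows, and *EBF2* itself had 27.3 and 66.3 CPM in *urt1-1*, against 21.3 and 46.8 CPM in WT, values that overlap.

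*NIA1* (AT1G77760), which encodes a nitrate reductase, differed from this pattern in its spread. It had 174 and 885 CPM in *urt1-1*, against 122 and 133 CPM in WT, a log2 change of 2.05 (SE 0.72) that came to 0.44 without *urt1-1* replicate 2 and to 2.79 without *urt1-1* replicate 1. In the *xrn4-3* background the log2 change was 8.94, and the difference between the changes, tested as an interaction in edgeR's likelihood ratio test, was 6.89 (SE 1.01, adjusted p = 2.2e-06, and 0.438 by the quasi-likelihood test). Its paralogue *NIA2* (AT1G37130, named after its values were seen) had 311 and 717 CPM in *urt1-1*, against 262 and 212 CPM in WT, a log2 change of 1.12, with an interaction of 7.29 (adjusted p = 2.0e-10 by the same test, 0.185 by the quasi-likelihood test). For both paralogues, *urt1-1* replicate 2 was the higher mutant library. The interaction was called at 30 loci in all (0.121% of those tested) and at 0 by the quasi-likelihood test.

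At the CBF cluster, loss of URT1 in the *xrn4-3* background gave no called change. *CBF1* had 6.13 and 6.28 CPM in *urt1-1 xrn4-3*, while *xrn4-3* had 9.33 and 9.496 CPM, and the interaction was −2.96 (SE 0.57, adjusted p = 0.00044 by edgeR's likelihood ratio test, 0.185 by the quasi-likelihood test). *CBF2* had 8.66 and 10.2 CPM in *urt1-1 xrn4-3*, while *xrn4-3* had 8.32 and 15.11 CPM, and *DREB1A* had 15.3 and 11.0 CPM in *urt1-1 xrn4-3*, while *xrn4-3* had 13.1 and 9.67 CPM. All 4 libraries with *xrn4-3* were thus above both WT libraries at each of the 3 loci, while loss of URT1 in that background gave log2 changes of −0.60, −0.31 and 0.21. Against WT, the log2 changes of *CBF1*, *CBF2* and *DREB1A* were 2.36, 2.27 and 2.25 in *urt1-1* and 2.78, 3.32 and 3.20 in *xrn4-3*, comparisons that share the WT libraries. AT1G62030 and AT3G17490 had log2 changes of 1.04 and 0.077 in the *xrn4-3* background, and AT1G19396 had 4.67 and 4.22 CPM in *urt1-1 xrn4-3*, while *xrn4-3* had 3.53 and 5.18 CPM, values that overlap.

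**Figure D3:**
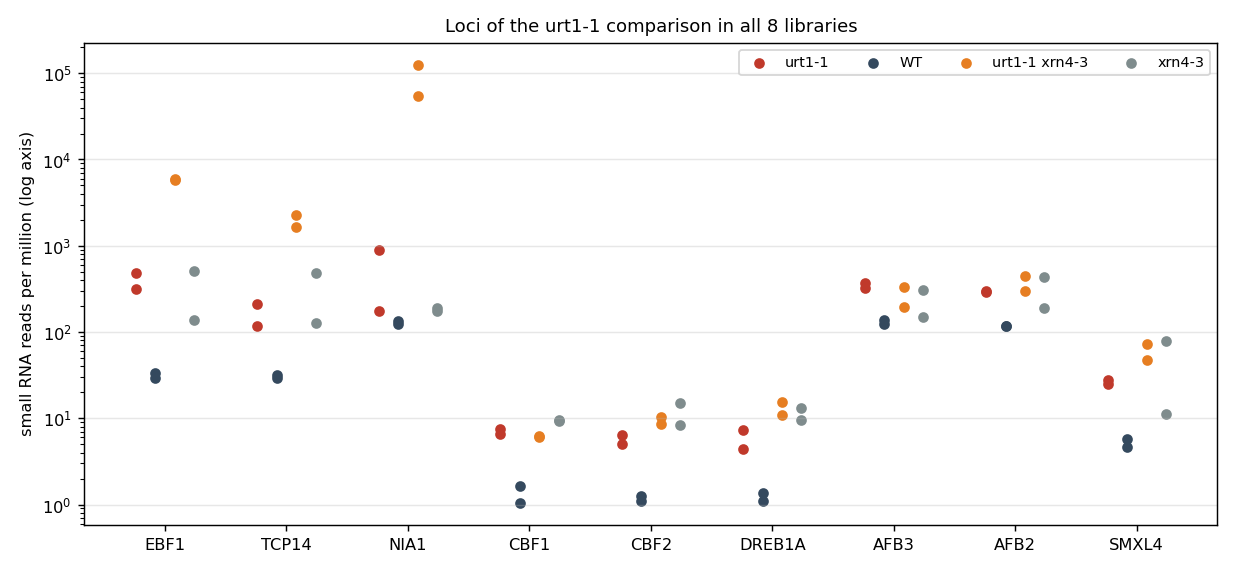
Small RNA CPM (log axis) at 9 named loci in all 8 libraries, 1 point per library, with the mutant of each pair left of its control (*urt1-1* and WT, *urt1-1 xrn4-3* and *xrn4-3*). *EBF1* and *TCP14* are higher with loss of URT1 in both pairs, *CBF1* is higher only in *urt1-1* against WT, with an interaction of −2.96, and at *NIA1* the change of 8.94 in the *xrn4-3* background exceeds that of 2.05 in *urt1-1* against WT.

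Classes of genes were then examined for shifts below the threshold of single loci, by 18 lists of locus codes and 15 classes taken from gene names. Of these 33, 21 had a median log2 change above 0 and 12 below 0. When each of the 4 libraries was left out in turn, 5 medians stayed above 0 in every fit, those of the secondary siRNA targets, the SMXL genes, SAUR proteins, WRKY factors and disease resistance proteins, and 0 stayed below 0 in every fit. The 345 tested genes of the 18 lists together had a median of −0.010.

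Of these 5 lists, the one with the largest share of members above 0 held 20 known targets of trans-acting siRNAs (tasiRNAs) or sources of secondary siRNAs, 18 of which had a log2 change above 0. Their median was 0.22, with a range of 0.054 to 0.39 when each library was left out, and their summed level was 8365 and 6544 CPM in *urt1-1*, against 6409 and 5647 CPM in WT. Both mutant libraries were above both WT libraries at 5 of them and below at 1, and 2 were raised at an unadjusted p under 0.05. In the *xrn4-3* background their median change was −0.71, of the opposite sign. Within this list, 13 genes for pentatricopeptide repeat (PPR) proteins on chromosome 1, which bind organellar RNAs, all had a change above 0, with a median of 0.22 and a summed level of 7571 and 5686 CPM in *urt1-1*, against 5992 and 5220 CPM in WT. Both mutant libraries were above both WT libraries at only 2 of these 13 (15.4%, against 13.6% of all loci), and 0 were raised at an unadjusted p under 0.05. The PPR loci are close paralogues that can share reads, so they are not 13 separate measurements, and *ARF4*, an auxin response factor gene and a tasiRNA target, had a change of −0.22.

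The 2 raised loci of this list encode auxin receptors of the TIR1/AFB family, F-box proteins whose mRNAs are cut at the site of miR393, a miRNA of 22 nt. The mature miRNA is printed with its seed, bases 2 to 8, in capitals (RefSeq, TAIR10.1), and the best matching site of each receptor gene is printed 5′ to 3′ with its mismatches to the reverse complement of the miRNA in capitals. The sets are shown because the 4 receptor genes share the site while their small RNA levels differ.
miR393a-5p (chr2:16652111-16652132, plus) and miR393b-5p (chr3:20691657-20691678, plus): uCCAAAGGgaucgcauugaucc
AFB3 (chr1:4369085-4369106, minus): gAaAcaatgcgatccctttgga
AFB2 (chr3:9870237-9870258, plus): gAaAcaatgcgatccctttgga
TIR1 (chr3:23273727-23273748, minus): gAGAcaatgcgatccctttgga
GRH1, also named AFB1 (chr4:1405341-1405362, minus): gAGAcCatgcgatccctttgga

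The sites of *AFB3* and *AFB2* are identical and hold 2 mismatches, that of *TIR1* holds 3 and that of *GRH1* 4. *AFB3* (AT1G12820) had 322 and 372 CPM in *urt1-1*, against 123 and 139 CPM in WT, a log2 change of 1.41 (SE 0.55, unadjusted p = 0.012 in edgeR's likelihood ratio test, 1.297 to 1.51 with each library left out). *AFB2* (AT3G26810) had 291 and 297 CPM in *urt1-1*, against 119 and 118 CPM in WT, a log2 change of 1.31 (SE 0.55, unadjusted p = 0.019 in the same test). *TIR1* (AT3G62980) had 40.7 and 44.0 CPM in *urt1-1*, against 23.7 and 23.3 CPM in WT (0.85, unadjusted p = 0.092 in edgeR's likelihood ratio test), and *GRH1* (AT4G03190) had 8.97 and 11.3 CPM in *urt1-1*, against 9.63 and 8.75 CPM in WT (0.14). The replicates of *AFB3*, *AFB2* and *TIR1* lay close together and the genotypes did not overlap, whereas those of *GRH1* overlapped. The changes were smaller where the site had more mismatches, which is a description of 4 loci, of which *AFB3* and *AFB2* share the same site. This order was not kept in the *xrn4-3* background, where *TIR1* had the largest change of the 4. Whether the site bears on the change was not tested. After adjustment over all loci none of the 4 passed (adjusted p = 1.00 for *AFB3* in edgeR's likelihood ratio test), and in the *xrn4-3* background their log2 changes were 0.18, 0.25, 0.65 and 0.30, in the order in which they are named.

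**Figure D4:**
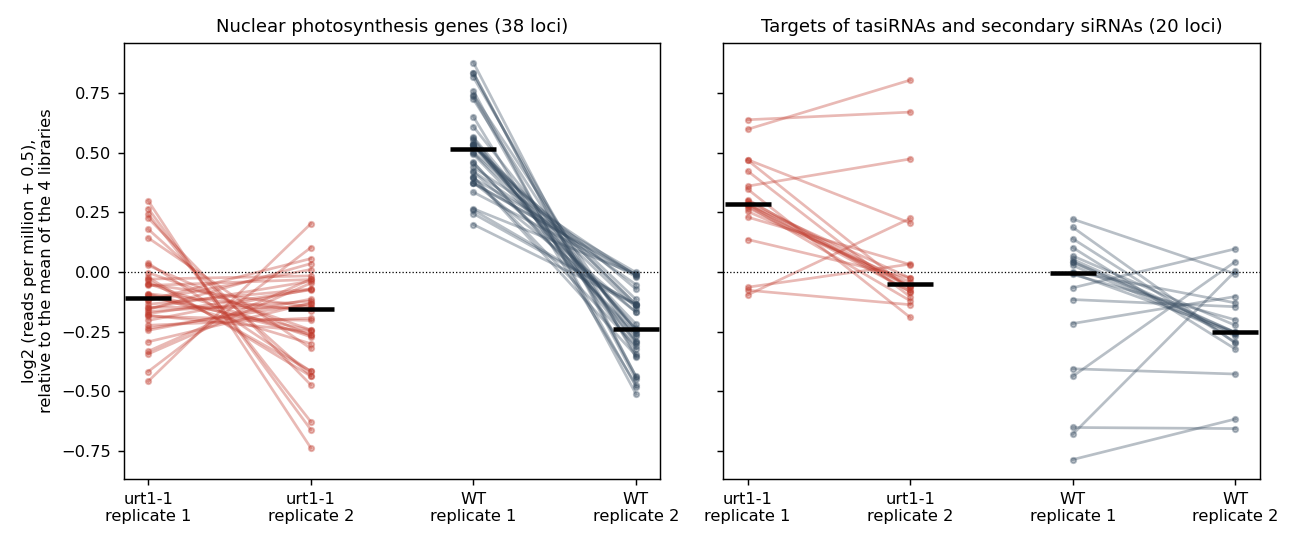
Level in each of the 4 libraries, as log2 of CPM plus 0.5 relative to the locus mean over the 4 libraries, at 38 nuclear photosynthesis genes (left) and 20 secondary siRNA targets (right). Points are loci, thin lines join the replicates of a genotype and thick bars are medians. WT replicate 1 is the highest library at all 38 photosynthesis genes. At the siRNA targets the bar of each *urt1-1* library lies above that of the WT library with the same number, but whether the numbers pair the libraries is not settled. Both *urt1-1* libraries are above both WT libraries at only 5 of the 20 targets and below them at 1.

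The 6 SMXL genes encode ATPase-like proteins of strigolactone and karrikin signalling and of phloem formation. Their median log2 change was 0.26, with a range of 0.19 to 0.61 when each library was left out, and 5 of the 6 were above 0. *SMXL4* (AT4G29920), which acts in phloem formation, had 28.1 and 25.2 CPM in *urt1-1*, against 4.59 and 5.73 CPM in WT, a log2 change of 2.37 (SE 0.71, unadjusted p = 0.0014 and adjusted p = 0.733 in edgeR's likelihood ratio test). *SMXL5* (AT5G57130, named after its values were seen), its closest paralogue, had 18.4 and 11.0 CPM in *urt1-1*, against 5.70 and 6.98 CPM in WT (1.21). Both genes had mutant libraries above the WT libraries, while *SMAX1*, *SMXL6*, *SMXL7* and *SMXL8* had changes between −0.16 and 0.37 with overlapping libraries. In the *xrn4-3* background the change was 0.41 for *SMXL4* and 3.97 for *SMXL5*.

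The 59 SAUR genes had a median log2 change of 0.19 (0.098 to 0.31 with each library left out). Both mutant libraries were above both WT libraries at 16 of them (27.1%, against 13.6% of all loci) and below at 6, with 4 raised and 2 lowered at an unadjusted p under 0.05. Their summed level was 193 and 222 CPM in *urt1-1*, against 164 and 183 CPM in WT, so that the margin between the nearest libraries was small. The 60 WRKY genes, which encode transcription factors of defence and stress, had a median of 0.15 (0.031 to 0.21), with 38 showing a change above 0. Both mutant libraries were above both WT libraries at 14 of them (23.3%, against 13.6% of all loci). Of the WRKY genes, *WRKY40* had 10.9 and 11.69 CPM in *urt1-1*, against 5.93 and 4.27 CPM in WT (log2 change 1.13), and *WRKY33* had 11.0 and 16.4 CPM in *urt1-1*, against 8.001 and 6.98 CPM in WT (0.87), and these 2 were raised at an unadjusted p under 0.05. The 152 disease resistance protein genes, which encode intracellular immune receptors, had a median of 0.081 (0.018 to 0.18), with 94 above 0 (61.8%), 32 with both mutant libraries above (21.1%) and 8 below. In the *xrn4-3* background the median change was 0.54 for the SAUR genes and −0.0057 for the WRKY genes. For the disease resistance genes it was −0.27 there, of the opposite sign.

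The 30 early stress-responsive genes, which react within minutes to wounding, elicitors or handling, had a median of 0.078 that did not keep its sign (−0.19 to 0.51 with each library left out). Among them 9 (30.0%, against 13.6% of all loci) had both mutant libraries above both WT libraries and 2 (6.67%, against 11.6%) below. *WRKY40*, *WRKY33* and *CZF1* (AT2G40140), a CCCH zinc finger gene with 8.39 and 11.3 CPM in *urt1-1*, against 5.04 and 3.44 CPM in WT, were raised at an unadjusted p under 0.05. *ZAT7*, a C2H2 zinc finger gene, was lowered at that level, with 0 and 0.183 CPM in *urt1-1*, against 0.963 and 0.625 CPM in WT, which is at most a few reads per mutant library. The other 11 genes of the list of CBF and cold-responsive genes, beside the called *CBF1*, *CBF2* and *DREB1A*, had a median of −0.27, with 3 above 0 and none past an unadjusted p of 0.05. For example, *COR15A*, a target of the CBF factors that protects chloroplast membranes in the cold, had 50.5 and 8.40 CPM in *urt1-1*, against 63.7 and 6.56 CPM in WT. These values differ more between replicates than between genotypes, with replicate 1 the higher in both genotypes.

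**Figure D5:**
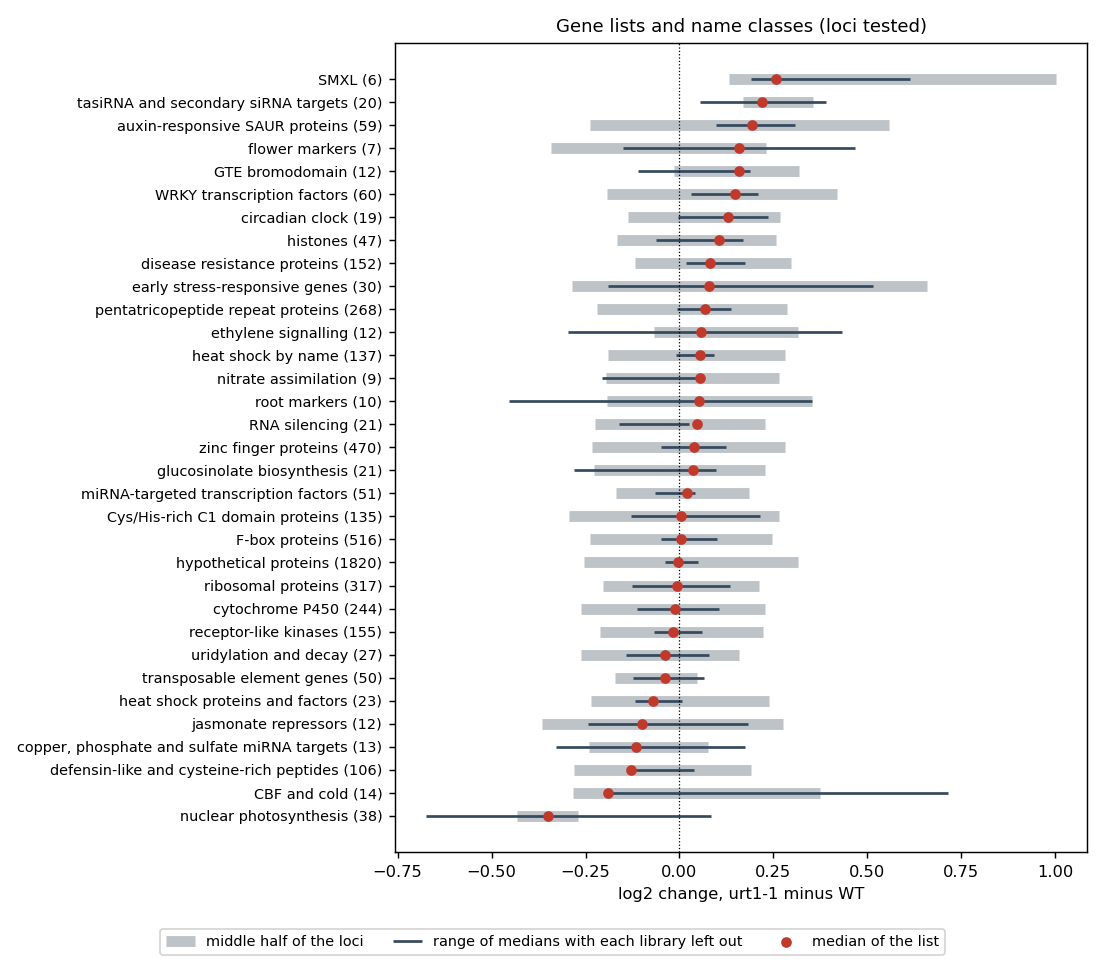
Median log2 change between *urt1-1* and WT for the 33 gene lists and name classes (points, number of loci in brackets), with the middle 50% of the loci as grey bars and the range of the median when each of the 4 libraries is left out as dark lines. The dark line stays right of 0 for 5 lists, such as the SMXL genes (0.19 to 0.61), and crosses 0 for the nuclear photosynthesis genes (−0.67 to 0.084).

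The list with the lowest median was that of 38 nuclear photosynthesis genes, which encode light-harvesting proteins, photosystem subunits and the small subunit of Rubisco. Their median was −0.35, 0 of the 38 had a change above 0, and 0 passed an unadjusted p of 0.05 in edgeR's likelihood ratio test. Their summed level was 11720 and 11577 CPM in *urt1-1*, against 17137 and 10973 CPM in WT. WT replicate 1 was the highest library at 38 of 38 genes. *PSAL*, a photosystem I subunit gene, had 202 and 226 CPM in *urt1-1*, against 335 and 245 CPM in WT, and *LHCB1.3*, a light-harvesting protein gene, had 1560 and 1782 CPM in *urt1-1*, against 2082 and 1582 CPM in WT. Both mutant libraries were below both WT libraries at 8 of the 38 (21.1%, against 11.6% of all loci). The median was 0.084 without WT replicate 1, with 26 genes above 0, and −0.67 without WT replicate 2.

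The 88 chloroplast loci had a median of −0.060 (−0.47 to 0.43 with each library left out), and WT replicate 1 was the highest library at 79 of them. Replicate 1 had the higher median level in both genotypes, with 142 and 101 CPM in *urt1-1*, against 170 and 88.1 CPM in WT. The 122 mitochondrial loci had a median of −0.17 (−0.53 to 0.11), with 24 above 0. Their median level was 23.4 and 15.6 CPM in *urt1-1*, against 26.1 and 19.3 CPM in WT, and the median change of −0.53 was the one without *urt1-1* replicate 1. The 1168 loci within 2 Mb of a centromere had a median of −0.068. None of these signs held in every fit.

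Genes of the pathways that URT1 and siRNAs belong to showed no called change. Among 27 genes of uridylation and mRNA decay the median was −0.037, and 0 were raised and 0 lowered at an unadjusted p under 0.05 in edgeR's likelihood ratio test. *HESO1*, the other TUTase of this list, had 6.66 and 7.49 CPM in *urt1-1*, against 6.15 and 8.13 CPM in WT, *XRN4* had 12.4 and 11.1 CPM in *urt1-1*, against 13.0 and 11.4 CPM in WT, and for both the libraries overlapped. Among 21 RNA silencing genes the median was 0.047 (−0.16 to 0.026 with each library left out). *AGO2*, which encodes a siRNA-binding ARGONAUTE, had 251 and 283 CPM in *urt1-1*, against 241 and 283 CPM in WT, and *RDR6*, which encodes the polymerase that makes double-stranded RNA, had 7.23 and 6.58 CPM in *urt1-1*, against 8.52 and 7.61 CPM in WT. *HYL1* (AT1G09700), which encodes the double-stranded RNA-binding partner of DCL1 in miRNA processing, was the only one lowered at an unadjusted p under 0.05. It had 1.59 and 2.74 CPM in *urt1-1*, against 5.63 and 5.21 CPM in WT (log2 change −1.35, SE 0.49, unadjusted p = 0.0051 in edgeR's likelihood ratio test), and 1.05 in the *xrn4-3* background.

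In the list of 12 ethylene signalling genes, *EBF1* was the only locus past an unadjusted p of 0.05, and the receptor gene *ETR2*, with 2488 and 3789 CPM in *urt1-1*, against 2112 and 3892 CPM in WT, held many more reads with no separation of the genotypes. In the list of 9 nitrate assimilation genes *NIA1* was the only such locus. Among 51 transcription factor genes targeted by miRNAs (median 0.020) and 23 heat shock genes (−0.071), 0 were raised and 0 lowered at that level. The 7 flower marker genes (0.16) and the 10 root marker genes (0.052) had none past that level either. Small RNA reads do not measure the mRNA of these markers, so the values cannot show the make-up of the plantlets. The 317 ribosomal protein genes had a median of −0.0071, with 2 raised and 3 lowered.

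The loci with the most reads in WT, which set much of each library's total, did not separate the genotypes. AT5G14550, a glycosyltransferase gene, had 94223 and 81329 CPM in *urt1-1*, against 117980 and 70136 CPM in WT (log2 change −0.10). This locus holds the precursor of miR398b on the opposite strand, and counting did not use the strand, so its reads can be the miRNA. AT2G01021, an uncharacterized gene at the start of chromosome 2, had 32481 and 65435 CPM in *urt1-1*, against 54207 and 61070 CPM in WT (−0.24). *IMB1* (AT2G34900), a bromodomain gene, had 34485 and 51264 CPM in *urt1-1*, against 48749 and 48247 CPM in WT (−0.18). At these 3 loci the libraries overlapped, as they did for *psbA* of the chloroplast (27436 and 35473 CPM in *urt1-1*, against 32689 and 23688 CPM in WT) and for *NEDD1*, a gene of microtubule nucleation (32808 and 16927 CPM in *urt1-1*, against 29488 and 15208 CPM in WT). Mature miRNAs inside counted loci are shown with the seed in capitals (RefSeq, TAIR10.1), because they are the sequences that a count at such a locus can stand for.
miR398b-3p in AT5G14550, opposite strand (chr5:4691107-4691127, plus): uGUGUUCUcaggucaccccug
miR408-3p in AT2G47020, opposite strand (chr2:19319933-19319953, plus): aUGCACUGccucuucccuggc
miR156d-5p in AT5G10946, same strand (chr5:3456713-3456732, minus): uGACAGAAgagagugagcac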

How the data were processed

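Small RNA of 18 to 30 nt from 24-day-old plantlets was sequenced in 2 libraries for each of 4 genotypes. The authors called bases with CASAVA 1.8.2, mapped reads to TAIR10 with Bowtie 1.0.0, counted them on mRNA loci with bedtools 2.17.0 and used edgeR 3.26.5, per the submitters' processing notes. The deposited table holds raw counts per locus and library, on which all tests below rest, and CPM columns made by the authors, which were not used. Reads of all sizes were counted without regard to strand, and a read that maps to several loci can count at each, so that paralogues and overlapping loci share reads.

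Tests on the counts were run in edgeR 4.0.16 (R 4.3.3). All 8 libraries entered 1 fit with a coefficient per genotype, TMM factors, filterByExpr with a count minimum of 10, estimateDisp and a likelihood ratio test, adjusted by Benjamini-Hochberg over 24722 loci and a threshold of 0.05. The likelihood ratio test was taken after the study's methods, and results of the quasi-likelihood test stand beside it. The dispersion common to all loci was 0.106. Standard errors are those of the coefficients, and log2 levels for correlations and plots used a pseudocount of 0.5 CPM. With 2 libraries per genotype, an exact permutation test of a single value cannot reach the threshold and none is given. For *urt1-1* against WT, edgeR's likelihood ratio and quasi-likelihood tests were first tried on simulated counts in which the changed loci were known. The other comparisons, the interaction and DESeq2 were not tried in this way.

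Named loci were *URT1*, the called loci, the 10 raised and the 10 lowered loci with the smallest p among those with a mean of at least 10 reads over the 4 libraries and no overlap between the genotypes, list genes with an unadjusted p under 0.05, and the 5 loci with the most reads in WT. Others are said to have been named after their values were seen. The gene lists by locus code, the classes by words in the gene name and this rule were chosen with earlier results of these data known. Lists are described by counts and medians, with no test. Symbols, products, exons and sequences came from RefSeq (TAIR10.1) by locus code, which matched 24447 of 24859 loci, and positions of loci are those of the deposited TAIR10 table. Scripts ran in Python 3.11.15 with numpy 2.4.6, pandas 2.3.3, scipy 1.17.1 and matplotlib 3.10.9. Alternative settings were DESeq2 1.42.0, edgeR's quasi-likelihood test, other library sizes (RLE factors, totals alone, or the genome-mapped reads), other filters on low counts, leaving out organelle loci, counting overlapping loci once, drawing reads to the smallest library, asking for a 2-fold change, fitting *urt1-1* and WT alone, adding the replicate number as a block, and leaving out single libraries.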

Additional observations from a re-analysis of the deposited data

Results flagged for a closer look

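At 3 loci named in the text the change with loss of URT1 differed between the backgrounds by a test of the difference itself, the interaction of edgeR's likelihood ratio test. At *CBF1* the change in *urt1-1 xrn4-3* against *xrn4-3* minus the change in *urt1-1* against WT was −2.96 on the log2 scale (SE 0.57, adjusted p = 0.00044). At *NIA1* it was 6.89 (SE 1.01, adjusted p = 2.2e-06). At *NIA2*, which was named after its values were seen, it was 7.29 (SE 0.87, adjusted p = 2.0e-10). The quasi-likelihood test called none of the 3 (adjusted p = 0.185 for *CBF1*, 0.438 for *NIA1* and 0.185 for *NIA2*).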

How the results depend on the processing

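The 6 raised and the 1 lowered locus depended on the test and on the fit. DESeq2 gave 1 raised and 0 lowered, the quasi-likelihood test and genome-mapped reads as library sizes gave 0 and 0, library size only gave 4 and 0, reads drawn to the smallest library gave 3 and 0, and only the *urt1-1* and WT libraries in the fit gave 12 and 2, which included all 7. Leaving out each library gave 0 to 8 raised and 1 to 54 lowered. At an unadjusted p under 0.05, DESeq2 gave 180 raised and 123 lowered, genome-mapped reads gave 114 raised and 148 lowered, a minimum of 10 reads in every library gave 116 lowered, and leaving out each library gave 252 to 305 raised and 251 to 295 lowered. The balance of 305 raised to 213 lowered turned round with genome-mapped reads and without WT replicate 1 (252 raised and 295 lowered). Genome-mapped reads moved the median of all loci to −0.075.

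The median change of the loci raised by loss of URT1 in the *xrn4-3* background was 0.39 with library size only and 0.13 to 0.40 with each library left out and the loci chosen again. That of the loci lowered there was −0.015 with genome-mapped reads and −0.33 to 0.067 with each library left out. *URT1* ranged from −1.17 to −0.55. Leaving out a library changed the sign at AT2G01021 (−0.83 to 0.18), AT5G14550 (−0.43 to 0.32), *psbA* (−0.057 to 0.41), *CYCD7;1* (−5.96 to 0.024), *EBF2* (−0.32 to 1.13), *GRH1* (−0.039 to 0.30), *IMB1* (−0.49 to 0.079) and *NEDD1* (−0.40 to 0.71). Of the other values for lists under the alternatives, 444 moved by less than the spread between replicates and 51 by more. Where no cause is named, the cause was not tested.

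A replicate block in the fit gave 8 raised and 2 lowered loci, all 7 called loci among them, 395 were raised and 264 lowered at an unadjusted p under 0.05, and the medians were 0.18 and −0.12 for the loci raised and lowered in the *xrn4-3* background. Libraries with the same number deviated from their group means with a correlation of 0.17 over all loci. At the 88 chloroplast loci, replicate 1 had the higher median level in all 4 genotypes. These medians were 142 and 101 CPM in *urt1-1* and 170 and 88.1 CPM in WT. They were 92.4 and 28.4 CPM in *urt1-1 xrn4-3* and 117 and 75.1 CPM in *xrn4-3*. The same held for the 11 cold-responsive genes beside *CBF1*, *CBF2* and *DREB1A*. The main fit took no account of the replicate number. The study's replicates were grown on separate occasions, but it is not stated that a number marks the same occasion in every genotype. Whether the numbers pair the libraries is therefore not settled.

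The calls did not follow the size of the change alone, and what limited them was not tested. The smallest called change was 1.96 (AT1G62030, SE 0.41). Changes of 2.37 at *SMXL4* (AT4G29920, SE 0.71, adjusted p = 0.733) and 2.29 at AT3G23690 (SE 0.59, adjusted p = 0.321) were not called by edgeR's likelihood ratio test.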

Other observations

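The balance of raised and lowered loci was set against features of the loci. Over 10 equal bins of loci by mean level, the median log2 change was 0.032 in the second lowest and −0.035 in the highest bin, with the others between, and over 5 bins by length it lay between −0.015 and 0.0052. Loci raised at an unadjusted p under 0.05 numbered 108 of the 4947 shortest (2.18%) and 21 of the 4944 longest loci (0.425%), against 1.23% of all loci. Loci lowered at that threshold numbered 61 of the shortest (1.23%) and 29 of the longest (0.587%), against 0.862% of all loci. Among the 4003 loci with 1 exon, of the 24722 tested, 76 were raised (1.90%) and 41 lowered (1.02%). Among the 3639 loci with over 10 exons 20 were raised (0.550%) and 24 lowered (0.660%). Of the 6 called raised loci, 5 have 1 exon (*EBF1* has 2), among them *CBF1*, *CBF2* and *DREB1A*, whose counts are not independent. The chromosomes 1 to 5 had medians between −0.019 and 0.0090. Other name classes stayed near 0, such as 516 F-box protein genes (median 0.0038, with 14 raised and 8 lowered at an unadjusted p under 0.05), 268 PPR protein genes (0.067), 47 histone genes (0.11), 244 cytochrome P450 genes (−0.013), 155 receptor-like kinase genes (−0.018) and 50 transposable element genes (−0.039). The 106 genes for defensin-like and cysteine-rich peptides had −0.13, with a range of −0.14 to 0.038 when each library was left out, and the 19 circadian clock genes had 0.13, with a range of −0.0027 to 0.23.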
